A study of Mus musculus with 18 samples.

Results

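Gpx1, Gpx2, Gpx3, Gpx4, Gclc, Txnrd1, Idh1, Nqo1, Hmox1 and Sod2 encode enzymes that remove peroxides and superoxide or supply the reducing power for it. They were chosen by symbol, as 10 of the 55469 genes listed in the 4 tables of normalized counts of this series. Gpx2 and Idh1 were put on the list because their levels in KO-TRAMP compared with WT-TRAMP differed between 10 and 30 weeks of age. Their KO-TRAMP values are therefore a description, with no test, and counts over members are over the other 8. The choice named no measured value of those 8.

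RNA of 18 males was sequenced from the lateral and ventral lobes of the prostate, 3 mice per line and age. All carried the TRAMP transgene as TRAMP+/-, in which the probasin promoter drives the SV40 T antigens in prostate epithelium, and the labels give the strain as C56NL/6N. WT-TRAMP mice had wild-type Elac2, KO-TRAMP mice had lost exon 8 of Elac2 in prostate epithelium through Pb-Cre, and A537T-TRAMP mice carried the A537T change of ELAC2 in the whole body. The ages were 10 and 30 weeks, and cells other than prostate epithelium kept an intact Elac2 in KO-TRAMP mice. The libraries are named here by the numbers in the column headers, WT-TRAMP 1 to 3, A537T-TRAMP 4 to 6 and KO-TRAMP 7 to 9 at 10 weeks, and WT-TRAMP 10 to 12, A537T-TRAMP 13 to 15 and KO-TRAMP 16 to 18 at 30 weeks. Each table holds 1 mutant line and the WT-TRAMP libraries of 1 age and was scaled on its own, so values were compared only within a table, and the 2 lines at an age share their WT-TRAMP libraries.

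Glutathione peroxidases reduce peroxides with electrons from glutathione, and thioredoxin reductase does the same for thioredoxin and its peroxidases. Both systems are recharged by NADPH, which isocitrate dehydrogenase 1 (Idh1) makes in the cytosol. Many of these genes, Nqo1, Gclc, Txnrd1, Gpx2 and Hmox1 among them, are known targets of the transcription factor NRF2, which KEAP1 holds in check until oxidants or electrophiles release it.

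Gpx1, Gpx2, Gpx3, Gpx4 and Txnrd1, 5 of the 10 members, are annotated as selenoproteins: a TGA codon, usually a stop, is read as selenocysteine at their active site, which ties their translation to selenium and to a dedicated tRNA. The coding strand around that codon is shown because it is the feature that sets these enzymes apart from the other members, with 21 bases before it, up to 21 after it and the selenocysteine codon in capitals (genome build GRCm38).
Gpx1, codon 47 of 201, TGA at chr9:108339451-108339453, plus strand: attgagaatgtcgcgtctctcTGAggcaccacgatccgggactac
Gpx2, codon 40 of 190, TGA at chr12:76795256-76795258, minus strand: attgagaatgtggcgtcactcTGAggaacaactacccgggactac
Gpx3, codon 73 of 226, TGA at chr11:54907256-54907258, plus strand: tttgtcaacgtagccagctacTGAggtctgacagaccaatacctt
Gpx4, codon 129 of 253, TGA at chr10:80054737-80054739, plus strand: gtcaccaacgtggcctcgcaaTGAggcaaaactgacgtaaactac
Txnrd1, codon 612 of 613, TGA at chr10:82896037-82896039, plus strand: gacatcctccagtctggctgcTGAggt

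In the 4 peroxidases the codon lay well inside the coding sequence, whereas in Txnrd1 it was the codon before the last. The windows of Gpx1 and Gpx2 were identical at 39 of 45 bases, or 86.7%, and the other 5 pairs of peroxidases at 46.7% to 60.0%. Gpx1 and Gpx2 shared no word of 31 bases over their transcripts, so their reads can be told apart. Of the words of 31 bases in Gpx4, 38.7% also occurred in its pseudogene copy Gpx4-ps2, and for Sod2 22.0% occurred in the gene model AC166110.4. The counts of Gpx4 and Sod2 are less certain for that reason. For Gpx2 the share with Gpx2-ps1 was 9.24%, and Gpx1, Idh1, Nqo1, Gclc, Txnrd1 and Hmox1 shared no such word with another gene.

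The core of the antioxidant response element, the sequence to which NRF2 binds with its small MAF partners, was searched as TGACNNNGC on both strands of RefSeq promoter windows (GRCm38, 250 bases before to 50 after a start site). Of the 10 members, 8 had a window there, and Gclc and Hmox1 did not. The core occurred in 1 of those 8 genes, Txnrd1, and in 3781 of all 27025 genes with a window. Counted over windows, of which a gene can have several, it was in 4071 of 32851, or 12.4%. The match is shown in capitals with its flanks, 92 bases before the start site, on the minus strand of chr10:82859104-82859132, which is printed as the plus strand.
Txnrd1: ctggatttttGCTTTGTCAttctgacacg
The AP-1 site TGANTCA, which can overlap a response element, was in the windows of 0 of the 8 members and of 2425 of all genes, and in 2565 or 7.8% of all windows. These windows are short, and a motif outside them was not searched.

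Facts of the whole series that touch these genes are few. The libraries held 9380174 to 14830104 reads, where reads are whole numbers recovered from the normalized counts. They are the authors' estimates per table, not reads counted from the sequencing. Every value was a whole multiple of what 1 read is worth, within 0.01. Elac2, the targeted gene, had 289 to 359 normalized counts in WT-TRAMP and 254 to 301 in KO-TRAMP libraries at 10 weeks, and 251 to 320 against 249 to 268 at 30 weeks. The groups overlapped at both ages (log2 fold change −0.22 and −0.19, adjusted p = 0.808 and 0.522, limma), and a count over the whole gene does not check a deletion of 1 exon in 1 cell type. None of the 10 luminal prostate markers was at 0 in any library, whereas transcripts of the seminal vesicle, a neighbouring gland, summed from 11.7 to 1157000 normalized counts, highest in library 5. At 30 weeks KO-TRAMP libraries 17 and 18 stood apart from library 16 in neuroendocrine and proliferation markers, with values given beside the results below.

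Compared per kb of transcript, the members covered a wide range in WT-TRAMP mice at 10 weeks. Gpx1 (937 ± 95.9 normalized counts per kb, SD, n = 3) and Gpx4 (933 ± 125) were highest and did not differ beyond their spread. Gpx3, the secreted plasma form, came next at 342 ± 234, a spread that covered the levels of Txnrd1 (243 ± 10.8), Sod2 (164 ± 8.05) and Gclc (161 ± 19.1). Idh1 stood at 110 ± 12.2 and Gpx2, a form best known from the lining of the gut, at 39.5 ± 6.95. Hmox1 (21.01 ± 6.80) and Nqo1 (2.39 ± 1.11) were lowest.

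At 30 weeks the order among the high members was nearly the same in WT-TRAMP mice, with Gpx4 at 934 ± 131 and Gpx1 at 893 ± 86.9 normalized counts per kb. Idh1 (150 ± 13.8) and Gclc (150 ± 8.89) then had nearly equal levels. In KO-TRAMP mice of that age Idh1 stood at 359 ± 52.4, within the spread of Txnrd1 (393 ± 69.4), and Gpx2 stood at 177 ± 104, a wide spread that covered the levels of Sod2 (199 ± 2.13) and Gclc (164 ± 20.03). The step of Gpx2 and Idh1 up the order is the pattern they were chosen for.

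**Figure D1:**
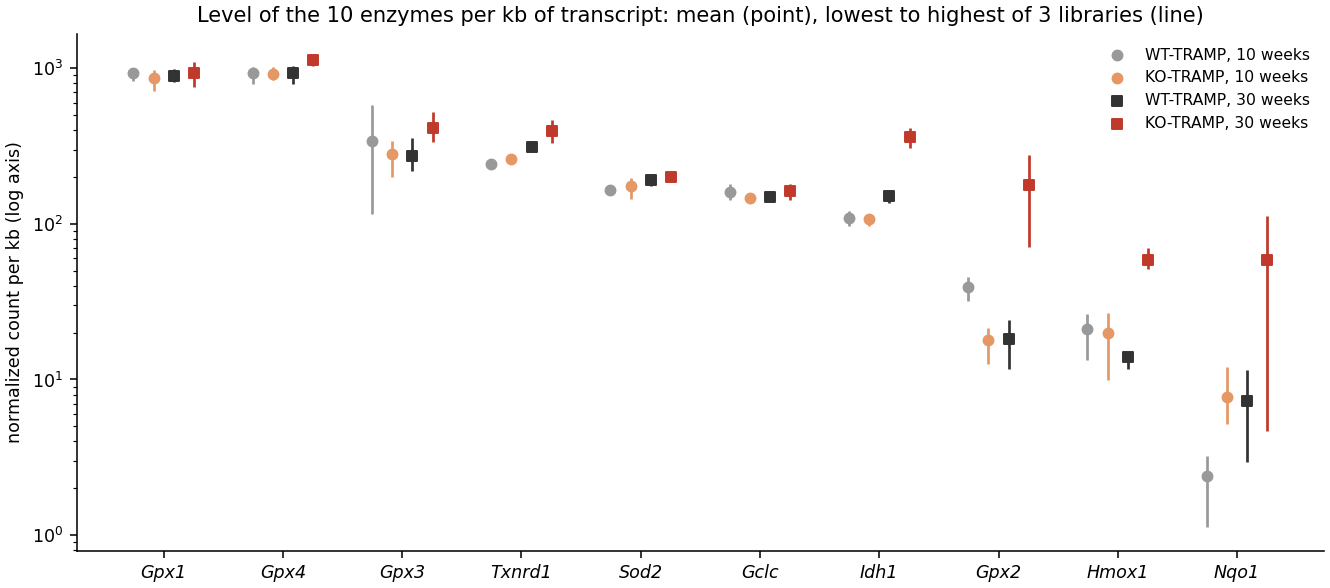
Level of each enzyme in normalized counts per kb of transcript (log axis) in the KO-TRAMP tables, as the mean (point) and the lowest to highest of 3 libraries (line), with groups by colour. In WT-TRAMP mice at 10 weeks the levels run from 937 (Gpx1) to 2.39 (Nqo1), and in KO-TRAMP mice at 30 weeks Idh1 and Gpx2 reach 359 and 177.

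Gpx2 (chr12:76792333-76795554, minus strand, GRCm38) had the widest range of the peroxidases as a ratio, from 8 to 408 reads in a library. At 10 weeks it had 43.7, 48.7 and 34.1 normalized counts in WT-TRAMP libraries 1 to 3, and in KO-TRAMP libraries 7 to 9 it had 13.5, 20.6 and 23.0. Every KO-TRAMP library was below every WT-TRAMP library, at 45.0% of their mean. At 30 weeks it had 25.7, 20.2 and 12.5 in WT-TRAMP libraries 10 to 12, while KO-TRAMP libraries 16 to 18 had 76.1, 297 and 194. The order was then the opposite, with a ratio of means of 9.72, and library 16 was the lowest of them. The log2 fold change in KO-TRAMP was −1.13 (SE 0.324) at 10 weeks and 3.07 (SE 0.553) at 30 weeks, on the scale of log2(normalized count + 1) used throughout. That scale makes the change of a low gene look smaller than it was. The difference of 4.19 is what put Gpx2 on the list. Without libraries 17 and 18, which leaves library 16 alone, the log2 fold change at 30 weeks was 1.97.

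In A537T-TRAMP mice Gpx2 had 37.4, 8.84 and 19.5 normalized counts in libraries 4 to 6, compared with 37.8, 42.6 and 29.3 in WT-TRAMP libraries of that table. Library 4 lay among the WT-TRAMP libraries and the other two below them. At 30 weeks the A537T-TRAMP values were 19.7, 46.5 and 61.8, compared with 25.3, 19.7 and 12.8 in WT-TRAMP. Libraries 14 and 15 were above the WT-TRAMP libraries and library 13 among them. The log2 fold changes were −0.91 (SE 0.525, adjusted p = 0.608) at 10 weeks and 1.01 (SE 0.487, adjusted p = 0.71) at 30 weeks, and their difference of 1.92 (SE 0.75) had an adjusted p of 0.721 in limma. The WT-TRAMP libraries behind these values are those from which Gpx2 was chosen, so the same direction in both lines is not independent.

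Gpx1, the main cytosolic peroxidase and the closest to Gpx2 in the sequence around its selenocysteine, showed none of this. It had 1075, 1051 and 886 normalized counts in WT-TRAMP and 1041, 768 and 964 in KO-TRAMP mice at 10 weeks, and 877, 1059 and 935 compared with 1182, 818 and 995 at 30 weeks. The groups overlapped in all 4 comparisons, and the log2 fold changes lay between −0.17 and 0.20. The adjusted p was between 0.712 and 0.897.

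Gpx4, which reduces lipid peroxides in membranes and guards against ferroptosis, had 783, 1036 and 968 normalized counts in WT-TRAMP and 1031, 1172 and 1175 in KO-TRAMP mice at 30 weeks. Library 16 lay just under the highest WT-TRAMP library, so the groups overlapped (log2 fold change 0.28, SE 0.138, adjusted p = 0.399). In A537T-TRAMP mice of that age it had 1148, 1027 and 1071, compared with 747, 980 and 916. Those groups did not overlap, with a log2 fold change of 0.30 (SE 0.123) and an adjusted p of 0.684. At 10 weeks the log2 fold changes of Gpx4 were −0.02 in KO-TRAMP and −0.12 in A537T-TRAMP mice.

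Gpx3 was the most variable of the well-measured members between mice of 1 group. At 10 weeks the WT-TRAMP libraries of the KO-TRAMP table had 185, 520 and 932 normalized counts and the KO-TRAMP libraries 482, 544 and 320. The A537T-TRAMP libraries had 1787, 1324 and 546, compared with 167, 469 and 834 in the WT-TRAMP libraries of their table (log2 fold change 1.43, SE 0.639, adjusted p = 0.6). Library 6 lay within the WT-TRAMP range, and leaving out library 1 gave an estimate of 0.80, and leaving out library 3 one of 1.96. At 30 weeks Gpx3 had 565, 347 and 397 in WT-TRAMP and 834, 536 and 604 in KO-TRAMP mice, and 541, 331 and 378 compared with 884, 433 and 945 in the A537T-TRAMP table. The log2 fold change was 0.60 (SE 0.246, adjusted p = 0.369) in KO-TRAMP and 0.81 (SE 0.323, adjusted p = 0.684) in A537T-TRAMP mice, and the groups overlapped in both.

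Gclc, the catalytic subunit of the enzyme that carries out the rate-limiting step of glutathione synthesis, had 542, 481 and 514 normalized counts in WT-TRAMP and 484, 615 and 583 in KO-TRAMP mice at 30 weeks. Its groups overlapped in every comparison, with log2 fold changes between −0.13 and 0.12 and adjusted p between 0.639 and 0.987. In A537T-TRAMP mice at 30 weeks library 14 was low, with 324 compared with 593 and 531 in the other two. The estimate there was −0.03 with all libraries and 0.23 without library 14.

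Txnrd1, the cytosolic thioredoxin reductase and the member with an antioxidant response element core in its window, had 861, 852 and 924 normalized counts in WT-TRAMP and 952, 954 and 930 in KO-TRAMP mice at 10 weeks. The groups did not overlap, although the difference was small (log2 fold change 0.11, SE 0.0898, adjusted p = 0.872). At 30 weeks it had 1098, 1159 and 1112 in WT-TRAMP and 1192, 1691 and 1388 in KO-TRAMP mice. The KO-TRAMP libraries were again above, library 16 by the least (log2 fold change 0.33, SE 0.145, adjusted p = 0.381). In A537T-TRAMP mice the log2 fold change was −0.08 at 10 weeks and 0.01 at 30 weeks, with overlapping groups.

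Idh1 (chr1:65158616-65186500, minus strand) was at one level in all libraries of the KO-TRAMP table at 10 weeks, with 278, 223 and 257 normalized counts in WT-TRAMP and 257, 223 and 263 in KO-TRAMP mice. At 30 weeks it had 377, 314 and 345 in WT-TRAMP and 706, 947 and 829 in KO-TRAMP mice. All KO-TRAMP libraries were above all WT-TRAMP libraries, with a ratio of means of 2.40, and library 17 was the highest. The log2 fold change in KO-TRAMP was −0.02 (SE 0.14) at 10 weeks and 1.25 (SE 0.149) at 30 weeks, and the difference of 1.28 is what put Idh1 on the list. Without libraries 17 and 18 the log2 fold change at 30 weeks was 1.03.

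In A537T-TRAMP mice Idh1 had 225, 314 and 339 normalized counts at 10 weeks, compared with 247, 198 and 227 in WT-TRAMP mice, and library 4 lay within the WT-TRAMP range. At 30 weeks it had 419, 536.6 and 411, compared with 349, 289 and 318, without overlap. The log2 fold changes were 0.37 (SE 0.198, adjusted p = 0.603) and 0.51 (SE 0.143, adjusted p = 0.576), and they differed between the ages by 0.14 (SE 0.247, adjusted p = 0.87). As for Gpx2, the WT-TRAMP libraries are those of the choice.

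Hmox1 (chr8:75093621-75100589, plus strand), which breaks down haem and is abundant in macrophages that clear red cells, had 36.7, 41.2 and 20.9 normalized counts in WT-TRAMP and 42.3, 15.7 and 35.8 in KO-TRAMP mice at 10 weeks. At 30 weeks it had 23.5, 23.99 and 18.2 in WT-TRAMP and 83.3, 110 and 80.4 in KO-TRAMP mice. The groups were mixed at 10 weeks, whereas at 30 weeks all KO-TRAMP libraries were above all WT-TRAMP libraries, library 16 at the level of library 18, with a ratio of means of 4.17. The log2 fold change was −0.13 (SE 0.445) at 10 weeks and 2.01 (SE 0.263) at 30 weeks. Of the members open to a test in KO-TRAMP it came nearest to the threshold of 0.05: its adjusted p in limma was 0.969 at 10 weeks and 0.0684 at 30 weeks.

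Other tests placed Hmox1 at 30 weeks on either side of the threshold. DESeq2 on the recovered reads gave an adjusted p of 4.1e-06, and edgeR's quasi-likelihood test 0.0751. Without library 16, where 3064 genes were past the threshold, the limma value was 0.0174 with a log2 fold change of 2.06. With library 16 as the only KO-TRAMP library the log2 fold change was 1.89. The KO-TRAMP effect on Hmox1 differed between the ages by 2.14 (SE 0.543, adjusted p = 0.227 in limma). The adjusted p was 0.0259 in DESeq2 and 0.0395 in limma without library 16, where 1944 genes were past the threshold. In A537T-TRAMP mice at 30 weeks Hmox1 had 45.1, 27.4 and 35.9, compared with 22.1, 22.4 and 17.1, without overlap (log2 fold change 0.77, SE 0.312, adjusted p = 0.684).

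Nqo1 (chr8:107388225-107403206, minus strand), a quinone reductase and a standard readout of NRF2, was the lowest member, with 2 to 239 reads in a library. At 10 weeks it had 1.75, 4.999 and 4.405 normalized counts in WT-TRAMP and 8.09, 18.6 and 9.18 in KO-TRAMP mice. The groups did not overlap, but the mean was below the minimum of 10 and no test was made. At 30 weeks WT-TRAMP mice had 17.9, 11.5 and 4.56, and KO-TRAMP mice 7.20, 174 and 92.9. Library 16 lay inside the WT-TRAMP range while libraries 17 and 18 were far above it (log2 fold change 2.23, SE 1.2, adjusted p = 0.422). Without library 16, where 3064 genes were past the threshold, the log2 fold change was 3.55 with an adjusted p of 0.0238 in limma. With library 16 alone the log2 fold change was −0.42. In A537T-TRAMP mice at 10 weeks Nqo1 had 4.07, 18.8 and 35.5, compared with 1.61, 4.61 and 4.04 (log2 fold change 1.88, SE 0.872, adjusted p = 0.6). It passed the minimum in that table through libraries 5 and 6, and library 4 lay among the WT-TRAMP libraries. The estimate was 1.54 without library 1 and 2.68 without library 4.

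Sod2, the superoxide dismutase of mitochondria, was among the steadiest members. It had 1021, 1206 and 1150 normalized counts in WT-TRAMP and 1177, 1171 and 1153 in KO-TRAMP mice at 30 weeks (log2 fold change 0.06, SE 0.102, adjusted p = 0.787). In A537T-TRAMP mice of that age it had 1328, 1058 and 1069, compared with 885, 1038 and 991, without overlap although library 14 was close to the WT-TRAMP mice (log2 fold change 0.24, SE 0.122, adjusted p = 0.721). At 10 weeks the log2 fold changes were 0.08 in KO-TRAMP and −0.13 in A537T-TRAMP mice.

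**Figure D2:**
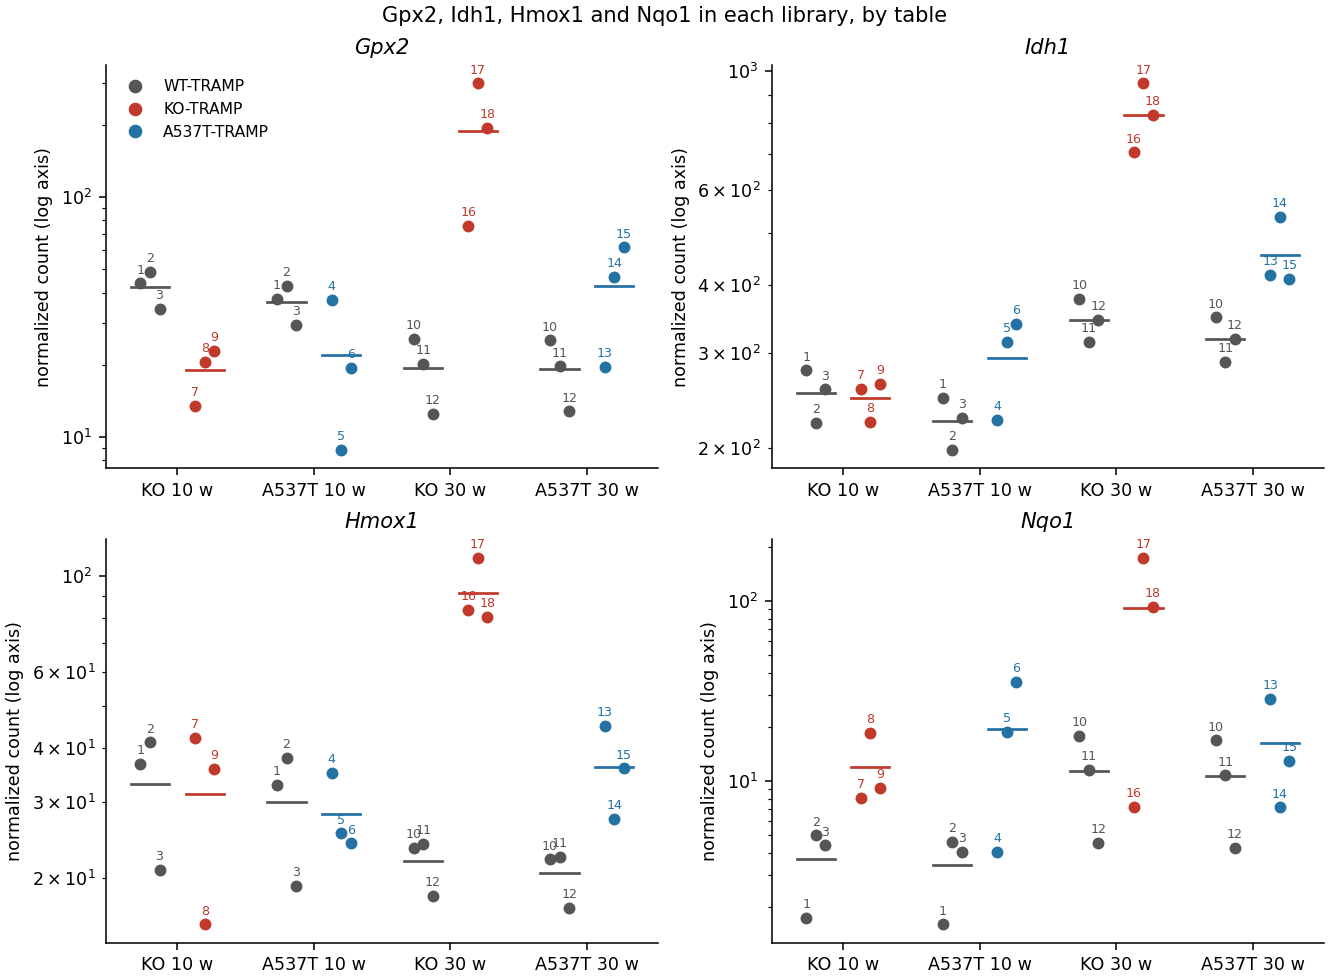
Normalized counts (log axis) of Gpx2, Idh1, Hmox1 and Nqo1 in each library, labelled by its number, for the 4 tables, with a line at each group's mean. At 30 weeks the KO-TRAMP libraries lie above the WT-TRAMP libraries for Gpx2 (76.1 to 297 against 12.5 to 25.7), Idh1 (706 to 947 against 314 to 377) and Hmox1 (80.4 to 110 against 18.2 to 23.99), while for Nqo1 library 16 (7.20) lies among them.

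Over the members, the 4 comparisons read as follows. In KO-TRAMP mice at 10 weeks 7 of the 8 members open to a test passed the minimum and none was past the threshold in limma, compared with 0.0129% of all 15451 genes tested. None had an unadjusted p under 0.05, as 6.64% of all genes did, and DESeq2 and edgeR called none either. The groups of 1 of the 7, Txnrd1, did not overlap, with KO-TRAMP higher, as for 5.77% of all genes. Of the 7 log2 fold changes 2 were above 0, compared with 48.9% over all genes, and their median was −0.03, compared with −0.01.

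The WT-TRAMP libraries of the A537T-TRAMP comparisons are those from which Gpx2 and Idh1 were chosen, so counts there too are over the other 8. At 10 weeks all 8 were tested, Nqo1 only through its high mutant libraries, and none was past the threshold in limma, compared with 0.00648% of 15438 genes. None had an unadjusted p under 0.05 in limma, as 7.89% of all genes did, and DESeq2 and edgeR called none. No member's groups were free of overlap, as against 13.4% of all genes and 6.92% with A537T-TRAMP higher. Without Nqo1, 2 of the 7 log2 fold changes were above 0, compared with 49.1% over all genes, and their median was −0.08.

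In KO-TRAMP mice at 30 weeks all 8 were tested and none was past the threshold in limma, compared with 0.213% of 16900 genes. Hmox1 had an unadjusted p under 0.05, as did 13.5% of all genes, and was also the 1 member that DESeq2 called, among 805 genes, while edgeR called none of the members among its 15 genes. The groups of Txnrd1 and Hmox1, 2 of the 8, did not overlap, with KO-TRAMP higher, as for 10.8% of all genes. All 8 log2 fold changes were above 0, as were 50.9% over all genes, and their median was 0.31 compared with 0.01. Without library 16, limma called 2 of the 8, Hmox1 and Nqo1. That setting called 3064 genes in all, so the 2 calls are not read as a result about the members.

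In A537T-TRAMP mice at 30 weeks none of the 8 was past the threshold in limma, where 0.0% of 16261 genes were. Gpx3, Gpx4 and Hmox1, or 3 of the 8, had an unadjusted p under 0.05, as did 7.21% of all genes, and neither DESeq2 nor edgeR called a member. The groups of Gpx4, Hmox1 and Sod2 did not overlap, with A537T-TRAMP higher, as for 7.36% of all genes. Of the 8 log2 fold changes 7 were above 0, compared with 50.0% over all genes, and their median was 0.27 compared with 0.00025 over all genes. Each line's effect was also compared between the ages: none of the 8 members in KO-TRAMP and none of the 8 in A537T-TRAMP was past the threshold in limma, and nor was any gene (0.0% of 16431 and 0.0% of 15941). An unadjusted p under 0.05 was found for Hmox1 in KO-TRAMP (13.1% of all genes) and for none of the 8 in A537T-TRAMP (6.36%). The differences were above 0 for 7 of 8 members in KO-TRAMP (50.3% of all genes) and 5 of 8 in A537T-TRAMP (50.5%). DESeq2 called Hmox1 in KO-TRAMP and edgeR none.

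**Figure D3:**
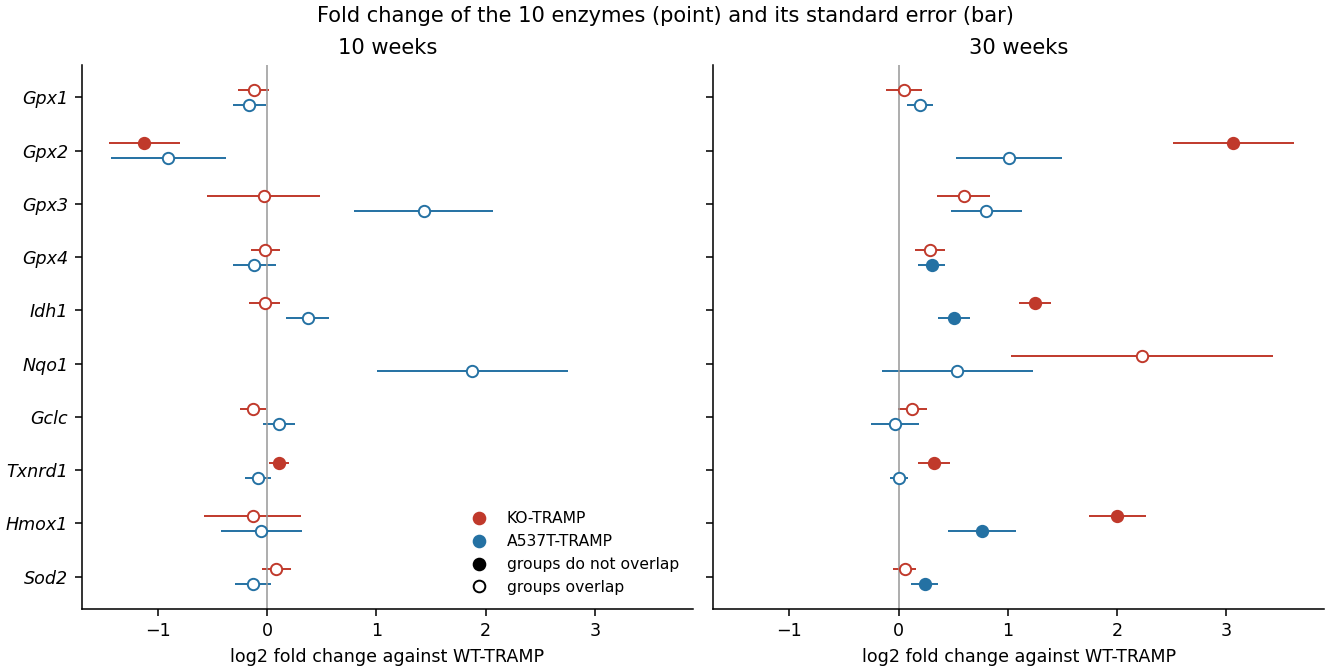
Log2 fold change of each enzyme against WT-TRAMP (point) with its standard error (bar) at 10 and 30 weeks, for KO-TRAMP (red) and A537T-TRAMP (blue), filled where the groups do not overlap; Nqo1 in KO-TRAMP at 10 weeks was below the minimum. The KO-TRAMP values of Gpx2, Idh1 and Hmox1 at 30 weeks are 3.07, 1.25 and 2.01, while Gpx1, Gclc and Sod2 stay between −0.17 and 0.24 in all comparisons.

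In tissue RNA, fewer cells of a type and less RNA per cell cannot be told apart, so the markers of other cells are given beside these values. At 30 weeks the 7 macrophage markers summed to 1215 to 1461 normalized counts in WT-TRAMP and 2599 to 3085 in KO-TRAMP mice. For 6 of these 7 genes the groups were free of overlap, C1qb was past the threshold, and none was at 0. In that comparison the groups of 20.2% of all genes were free of overlap, and 0.213% of all genes were past the threshold. The 8 fibroblast markers summed to 4450 to 5104 and 18040 to 22890, without overlap for any of the 8 and with Col1a1, Col1a2 and Col3a1 past the threshold. Macrophage and fibroblast sums were thus high in library 16 too, as were Hmox1, Idh1 and, less so, Gpx2. The 5 erythrocyte markers summed to 180 to 189 in WT-TRAMP and to 282, 585 and 441 in libraries 16 to 18, with none past the threshold and none at 0. The 10 luminal markers summed to 38030 to 46190 and to 38320, 28060 and 31360, with a median log2 fold change of −0.90. None was past the threshold, although 7 had an unadjusted p under 0.05 in limma, as did 13.5% of all genes. The part of these cells in the results was not tested.

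Other markers were higher in libraries 17 and 18 than in library 16. The 8 neuroendocrine markers summed to 16100 and 10110 normalized counts in libraries 17 and 18 and to 4.12 in library 16, where Chgb, Scg2, Scg3 and Snap25 were at 0. In WT-TRAMP libraries they summed to 3.84 to 1516, and Chga, Insm1, Scg2, Scg3 and Snap25 were at 0 in library 11. The 10 proliferation markers summed to 31590 and 22330 in libraries 17 and 18, 9761 in library 16 and 10180 to 16340 in WT-TRAMP. The 6 endothelial markers summed to 3335 and 2272 in libraries 17 and 18, to 677 in library 16 and to 409 to 519 in WT-TRAMP, so that library 16 was above WT-TRAMP as well. Smooth muscle markers summed to 43920 and 30620 in libraries 17 and 18, to 9204 in library 16 and to 18540 to 32380 in WT-TRAMP, a range that held library 18. Basal epithelium markers summed to 2432 and 1745 in libraries 17 and 18, to 452 in library 16 and to 449 to 462 in WT-TRAMP. Nqo1 was likewise highest in libraries 17 and 18, and among the KO-TRAMP libraries Gpx2, Idh1 and Txnrd1 were also highest in library 17 and lowest in library 16. The part of these cells or states in the values of Nqo1 was not tested.

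At 30 weeks in A537T-TRAMP mice the fibroblast markers summed to 6948 to 11600 normalized counts compared with 4232 to 4862 in WT-TRAMP, and the macrophage markers to 1364 to 2130 compared with 1177 to 1443. Library 13 was the highest in both lists and in Hmox1, and library 14 the lowest of its group in both and in Hmox1. The adipocyte markers summed to 32.2 to 157 in A537T-TRAMP mice compared with 467 to 1355 in WT-TRAMP. In KO-TRAMP mice of that age they summed to 50.4 to 526 compared with 494 to 1451, and library 17 overlapped the WT-TRAMP range. There 1 of the 6 adipocyte markers tested was past the threshold, lower, as 0.213% of all genes were in either direction. Of 8 skeletal muscle markers 2 were past it, higher, with 6 log2 fold changes above 0 and 2 below. B cell markers summed to 29.8 to 69.2 in KO-TRAMP compared with 155.5 to 182.4 in WT-TRAMP mice. At 10 weeks seminal vesicle transcripts summed to 19.3 to 49.5 in WT-TRAMP and 5025, 1157000 and 135200 in A537T-TRAMP libraries 4 to 6, and smooth muscle markers to 4907 to 8187 compared with 12020 to 37390. The luminal markers summed to 241900 to 323000 in WT-TRAMP and to 353300, 25730 and 181400 in libraries 4 to 6, with a median log2 fold change of −0.24. Nqo1 and Idh1 were highest in libraries 5 and 6 of that group and Gpx2 lowest there.

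In KO-TRAMP mice at 10 weeks, where Gpx2 was low, the luminal markers summed to 150700 to 162900 normalized counts compared with 271000 to 359800 in WT-TRAMP. The sums did not overlap, but a sum follows its most abundant genes. The median log2 fold change of the 10 genes was −0.13, with 7 below 0 and 3 above. For 2 of the 10 the groups did not overlap, as for 12.0% of all genes, and none was past the threshold. The 10 smooth muscle markers summed to 9801 to 16320 compared with 5529 to 9201, without overlap for 5 of the 10, compared with the same 12.0%. Seminal vesicle transcripts summed to 99.8, 5937 and 180100 in libraries 7 to 9 compared with 20.98 to 54.0. No luminal or smooth muscle marker was at 0. At both ages and in both lines, the part of these tissues in the values was not tested.

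**Figure D4:**
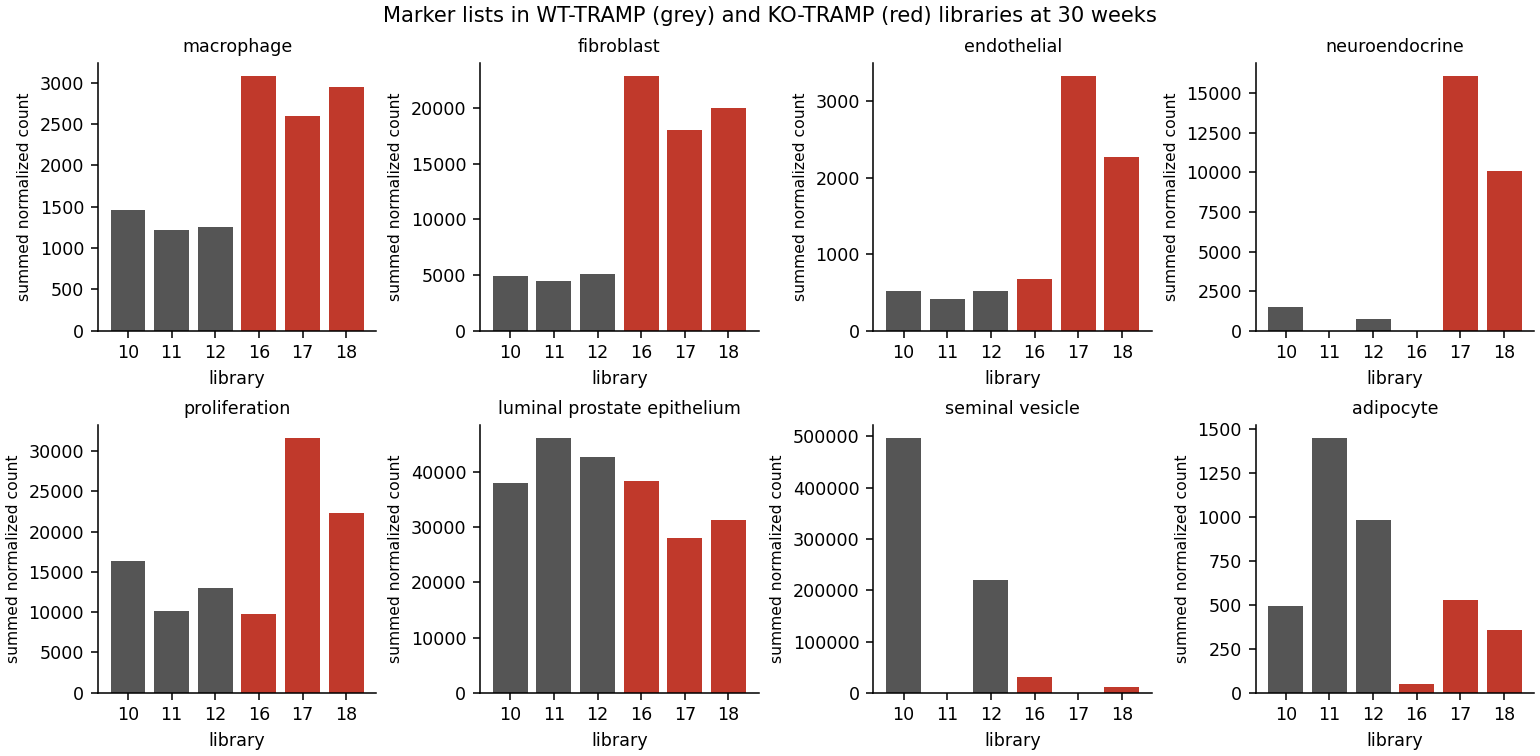
Summed normalized counts of 8 marker lists in each library of the KO-TRAMP table at 30 weeks (bars from 0, WT-TRAMP grey, KO-TRAMP red). Macrophage and fibroblast sums are high in all 3 KO-TRAMP libraries (2599 to 3085 and 18040 to 22890), while neuroendocrine and proliferation sums are high only in libraries 17 and 18 among the 3.

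The wider pathway was described by 10 lists with 106 genes. None of their genes was past the threshold in limma in any of the 4 comparisons. Their median log2 fold change was −0.02 in KO-TRAMP and −0.01 in A537T-TRAMP mice at 10 weeks, and 0.20 and 0.16 at 30 weeks. The number with an unadjusted p under 0.05 was 5 of 94 tested and 5 of 95 at 10 weeks, and 19 of 101 and 10 of 97 at 30 weeks. These are 5.32%, 5.26%, 18.8% and 10.3%, as against 6.64%, 7.89%, 13.5% and 7.21% of all genes. Of the genes tested in KO-TRAMP at 30 weeks 3 had a WT-TRAMP mean under 10 and passed the minimum only through KO-TRAMP. The KO-TRAMP counts, shares and median at 30 weeks given here include them, so none is read as a result about the pathway. The groups did not overlap for 30.7% of those tested in KO-TRAMP mice at 30 weeks, as against 20.2% of all genes, and for 8.51%, 9.47% and 11.3% in the other comparisons, as against 12.0%, 13.4% and 13.4%.

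Among regulators of NRF2, Nfe2l2, which encodes NRF2 itself, had 488, 478 and 482 normalized counts in WT-TRAMP and 569, 679 and 677 in KO-TRAMP mice at 30 weeks. All KO-TRAMP libraries were above (log2 fold change 0.40, SE 0.115, adjusted p = 0.327), while the median of the 8 regulators was −0.07. In KO-TRAMP mice at 10 weeks Bach1, a repressor of Hmox1, had 475, 510 and 427, compared with 558, 541 and 562 in WT-TRAMP (log2 fold change −0.24, adjusted p = 0.743).

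In glutathione synthesis and recycling 7 of 9 log2 fold changes were below 0 in KO-TRAMP mice at 30 weeks, with a median of −0.13, and 9 of 9 were above 0 in A537T-TRAMP mice, with a median of 0.18. Ggt1, which cleaves glutathione outside the cell, had 969, 894 and 909 normalized counts in WT-TRAMP and 569, 260 and 453 in KO-TRAMP mice (log2 fold change −1.18, SE 0.286, adjusted p = 0.274). The KO-TRAMP libraries were below, library 17 the most. In A537T-TRAMP mice Slc3a2, the partner of the cystine importer, had a log2 fold change of 0.19 (adjusted p = 0.74). Glrx, a glutaredoxin, had log2 fold changes of 0.67 in KO-TRAMP (adjusted p = 0.745) and 1.23 in A537T-TRAMP mice at 10 weeks (adjusted p = 0.603), the latter with 270 counts in library 5 compared with 58.6 and 50.5 in libraries 4 and 6.

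In the thioredoxin and peroxiredoxin system Prdx2, a cytosolic peroxidase that is abundant in red cells and neurons, had 1268, 1041 and 1034 normalized counts in WT-TRAMP and 1404, 7789 and 5444 in KO-TRAMP mice at 30 weeks. Library 16 was just above the WT-TRAMP libraries and libraries 17 and 18 far above them (log2 fold change 1.82, SE 0.615, adjusted p = 0.345). Txnrd2, the mitochondrial counterpart of Txnrd1, had 106, 108 and 83.7 in A537T-TRAMP mice at 10 weeks, compared with 137, 135 and 134 in WT-TRAMP, and 133, 168 and 137 at 30 weeks, compared with 94.9, 115 and 121. The groups did not overlap at either age, on opposite sides (log2 fold change −0.45 and 0.40, adjusted p = 0.6 and 0.691), and the effects differed between the ages by 0.85 (SE 0.234, adjusted p = 0.721). In KO-TRAMP mice at 10 weeks its log2 fold change was 0.25 (adjusted p = 0.806).

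Among other sources of NADPH, Me1, the cytosolic malic enzyme, had 254, 313 and 326 normalized counts in WT-TRAMP and 357, 485 and 443 in KO-TRAMP mice at 30 weeks (log2 fold change 0.52, SE 0.172, adjusted p = 0.341). All KO-TRAMP libraries were above, as for Idh1, but the median of the list was 0.11. The list holds 16 genes and 17 entries, because Nnt is listed under 2 gene IDs. In A537T-TRAMP mice Mthfd2, a mitochondrial folate enzyme, had a log2 fold change of 0.99 at 10 weeks (adjusted p = 0.6), and Me3 one of −0.48 at 30 weeks (adjusted p = 0.706).

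Of the enzymes that remove superoxide and peroxide, Cat, catalase, had 849, 799 and 891 normalized counts in WT-TRAMP and 991, 1007 and 980 in KO-TRAMP mice at 10 weeks (log2 fold change 0.23, SE 0.0918, adjusted p = 0.734). In A537T-TRAMP mice of that age Sod3, the extracellular dismutase, had 8.95, 61.9 and 33.2, compared with 4.82, 5.76 and 6.06 (log2 fold change 2.09, adjusted p = 0.6), and it passed the minimum only through the A537T-TRAMP libraries. Gpx7, a peroxidase of the endoplasmic reticulum, had 15.7, 11.5 and 7.98 in WT-TRAMP and 16.5, 31.3 and 32.4 in KO-TRAMP mice at 30 weeks (log2 fold change 1.11, adjusted p = 0.37).

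In KO-TRAMP mice at 30 weeks the conjugating enzymes had log2 fold changes from −0.64 (Gstt2, adjusted p = 0.401) to 2.92 (Gstp2, adjusted p = 0.438). Gstp2 was named after its value was seen. Of the 20 genes tested there, 1 had a WT-TRAMP mean under 10 and passed the minimum only through KO-TRAMP. The spread is therefore not read as a result. Gstp2 and Gstm1 have near-identical relatives, so their counts are uncertain. In KO-TRAMP mice at 10 weeks Gstm1 had a log2 fold change of 0.33 (adjusted p = 0.719), and in A537T-TRAMP mice at 30 weeks Mgst1 one of 0.30 (adjusted p = 0.691). In haem and iron handling, next to Hmox1, the ferritin light chain Ftl1 had 3247, 2873 and 3187 in WT-TRAMP and 3289, 5607 and 4656 in KO-TRAMP mice at 30 weeks (log2 fold change 0.51, adjusted p = 0.365). Blvrb, a biliverdin reductase, had 138, 93.0 and 111 in A537T-TRAMP mice compared with 65.3, 71.7 and 83.2 (log2 fold change 0.61, adjusted p = 0.666).

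Selenoprotein synthesis is what 5 of the members depend on for their active site. Sepsecs, which makes selenocysteine on its tRNA, had 476, 382 and 377 normalized counts in WT-TRAMP and 276, 319 and 317 in KO-TRAMP mice at 10 weeks, and 330, 336 and 341 compared with 386, 474 and 465 at 30 weeks. The KO-TRAMP libraries were all below WT-TRAMP at 10 weeks and all above at 30 weeks (log2 fold change −0.43 and 0.39, adjusted p = 0.716 and 0.338), the order that Gpx2 had. Over the 15 genes of that list the median log2 fold changes were −0.03 and 0.235, and a link with Gpx2 was not tested. The effects on Sepsecs differed between the ages by 0.82 (SE 0.182, adjusted p = 0.21). Pstk, the kinase before it in the pathway, had a log2 fold change of 0.24 in A537T-TRAMP mice at 10 weeks (adjusted p = 0.624). Of 9 oxidase genes that make superoxide, 7 passed the minimum in KO-TRAMP mice at 30 weeks, 2 of them only through KO-TRAMP, so no count or median is read from them. One of those 2, Nox4, had 5.60, 6.72 and 6.84 in WT-TRAMP and 22.6, 25.5 and 28.2 in KO-TRAMP mice, evenly over the 3 libraries. Its log2 fold change was 1.84 (SE 0.399, adjusted p = 0.232). The paper describes the opposite direction for KO-TRAMP mice, with reduced Nox4 mRNA there and increased Nox4 mRNA in A537T-TRAMP mice. The reason for this difference was not tested. Ncf4, a subunit of the phagocyte oxidase, had a log2 fold change of 0.92 in A537T-TRAMP mice at 30 weeks (adjusted p = 0.687).

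**Figure D5:**
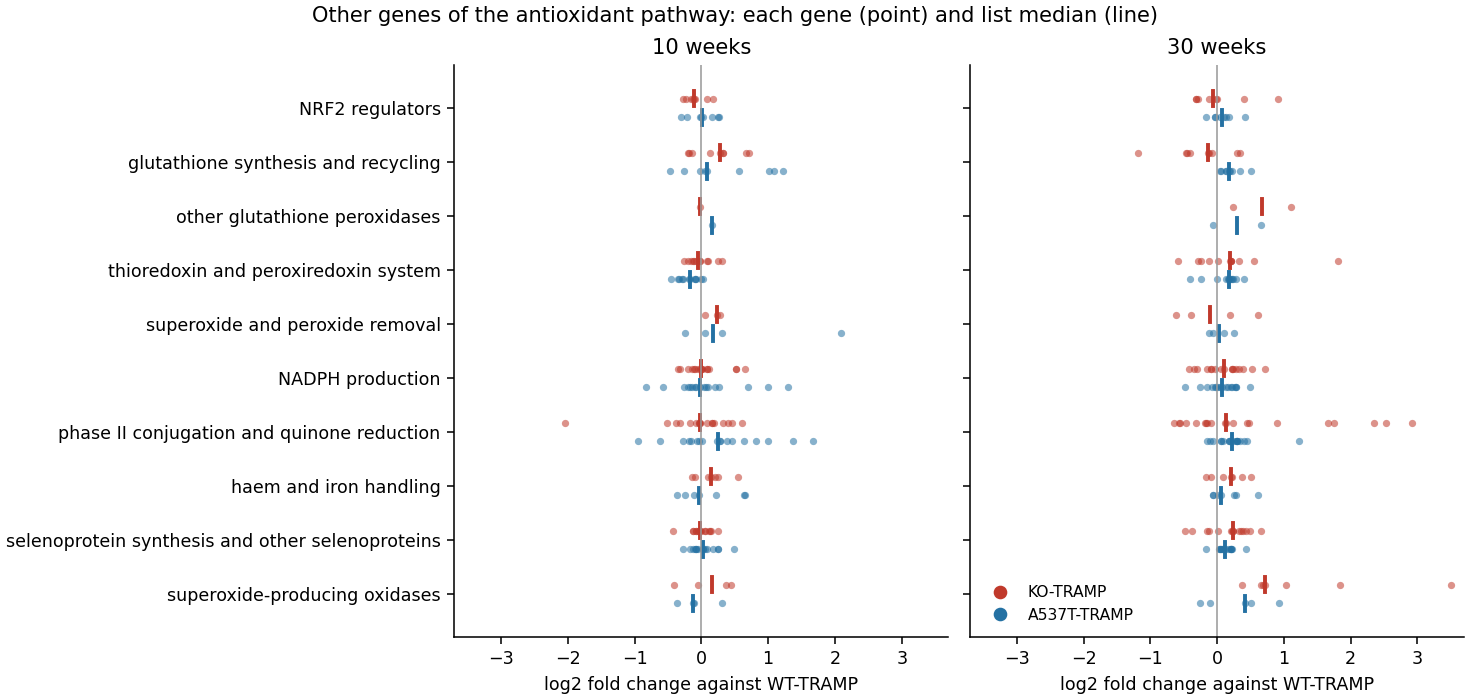
Log2 fold change against WT-TRAMP of each tested gene (point) and the median (line) of the 10 pathway lists, for KO-TRAMP (red) and A537T-TRAMP (blue) at 10 and 30 weeks. At 30 weeks in KO-TRAMP the median is −0.13 for glutathione synthesis and recycling and 0.11 for NADPH production, and single conjugating enzymes reach 2.92. Some points passed the minimum through 1 group only.

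Genes with the pattern most like that of Gpx2 and Idh1 were sought over the 12 libraries of the KO-TRAMP tables, each table centred on its own mean, among 9857 and 9856 genes with a mean of at least 100 in both. For Gpx2 they were Snapc2 (Pearson r = 0.955), Paip2 (0.952), Hipk3 (0.943), Aifm2 (0.93) and Senp6 (0.93). For Idh1 they were Ltv1 (0.96), Skil (0.955), Bloc1s2 (0.946), Papss1 (0.943) and Tpm4 (0.943). Aifm2 encodes FSP1, which uses NADPH to regenerate lipid antioxidants, and the others are not known as antioxidant enzymes. Gpx2 and Idh1 had r = 0.891 with each other, which placed Idh1 at rank 47 for Gpx2. Both were chosen for their KO-TRAMP effects in these same libraries, so that value is not independent of the choice. Of the 6 other members with a mean of at least 100, Txnrd1 had the highest value with either. It had 0.721 with Gpx2 (rank 906) and 0.787 with Idh1 (rank 455), whereas Gpx1 had −0.05 and −6.4e-05. The points share their libraries, and these values are a description.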

How the data were processed

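Prostate RNA-seq was analysed from 4 deposited tables of 18 libraries. Per the labels' processing notes and the study's methods, the authors trimmed reads (Trim Galore 0.4.1, cutadapt 1.18), aligned them with STAR 2.7.3a to GRCm38 with nuclear mitochondrial copies masked out, quantified genes with Salmon on GENCODE M24 with strand, and imported the estimates with tximport into DESeq2 1.26. The deposited values are a signal: normalized counts, that is estimated read counts scaled by a size factor of each library within its table. Another 4 deposited tables hold the authors' own fold changes and s-values and were not used. The headers carry library numbers only, so the 3 columns present in both tables of an age were taken to be WT-TRAMP and those in 1 table only to be the mutant. The WT-TRAMP libraries had identical reads in both of their tables for 30.9% to 37.6% of genes, with a median difference of 2.14% to 3.40%.

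Genes averaging 10 or more normalized counts were tested by limma 3.58.1 (lmFit, eBayes with trend, R 4.3.3) on log2(normalized count + 1), two-sided, with Benjamini-Hochberg adjustment over all genes tested and a threshold of 0.05. Age differences were fitted as an interaction over 12 libraries with an intercept per table. The main test is not a count test because the values are normalized; DESeq2 1.42.0 and edgeR 4.0.16 were run on recovered whole reads as alternatives, beside a pseudocount of 5, no filter, TMM rescaling and leaving out each library. The fit without libraries 17 and 18 was added after seeing the data and treats library 16 as varying like the other libraries. Each mouse is 1 library, and intervals for counting error were not computed.

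The members and lists were chosen with earlier results of these data known. Members, Elac2, the gene of each pathway list with the largest change among those without overlap, and the 5 genes most like Gpx2 and Idh1 were named by rule. Symbols matched 55107 gene IDs, and annotation came from GENCODE M21. On simulated data with known folds, limma recovered 57.8% of 2-fold and 97.8% of 4-fold changes for KO-TRAMP at 30 weeks (16931 genes), and 17% and 94.7% for the KO-TRAMP age difference (16496 genes). The simulation gave every gene the same spread between libraries and no difference in cell make-up, and it changed only genes with enough reads. These shares therefore do not measure what the tests could find in the real libraries. A gene that was not called is not shown to be unchanged.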

Additional observations from a re-analysis of the deposited data

Results flagged for a closer look

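Set against the arithmetic WT-TRAMP mean of the table, every KO-TRAMP library was below it at 10 weeks and above it at 30 weeks for Gpx2 and for Gpx3. For Gpx2 the log2 effect was 4.19 higher at 30 than at 10 weeks, and since Gpx2 was chosen for it the difference was not tested. For Gpx3 the log2 effects were −0.03 and 0.60 and differed by 0.63. On the log2 scale this does not hold for Gpx3, since 2 of the 3 KO-TRAMP libraries at 10 weeks were above the WT-TRAMP mean of that scale (448 against an arithmetic mean of 546). The opposite directions as such were not tested, and the interaction term for Gpx3 had an adjusted p of 0.684 in limma. The groups of Gpx3 overlapped at both ages. Leaving out 1 library moved this difference from 0.10 (library 3) to 1.265 (library 1).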

How the results depend on the processing

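No paired analysis was possible because the column headers carry no replicate number.

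The number of members past the threshold was 0 in every comparison and setting, except that DESeq2 called 1 (Hmox1) in KO-TRAMP at 30 weeks and 1 (Hmox1) in the KO-TRAMP age difference, and that leaving out 1 library gave 0 to 2 and 0 to 1 in those (the highest without library 16). The genes past the threshold over the whole table varied more. In KO-TRAMP at 10 weeks they were 81 by DESeq2, 0 by edgeR and 1 to 9 without 1 library, compared with 2. In A537T-TRAMP at 10 weeks they were 148, 0 and 0 to 65 (library 4), compared with 1. In KO-TRAMP at 30 weeks they were 805, 15 and 0 to 3064 (library 16), and 16 without libraries 17 and 18, compared with 36. In A537T-TRAMP at 30 weeks they were 165 by DESeq2 and 0 to 145 (library 11), compared with 0. For the KO-TRAMP age difference they were 1 with a pseudocount of 5, 1 without the filter, 382 by DESeq2, 0 to 1944 (library 16) and 5 without libraries 17 and 18, compared with 0, and for the A537T-TRAMP age difference 50 by DESeq2 and 0 to 20 (library 11), compared with 0. The cause was not tested.

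Signs of small estimates turned. Gclc in A537T-TRAMP at 30 weeks was 0.01 by DESeq2 and by edgeR (0.01086 and 0.01186), compared with −0.03. Without libraries 17 and 18 Nqo1 (−0.42) and Gclc (−0.081) at 30 weeks and the age difference of Txnrd1 (−0.018) turned in KO-TRAMP, and the age differences of Gpx2 and Idh1 were 3.10 and 1.06. Leaving out 1 library gave, in KO-TRAMP at 10 weeks, −0.42 to 0.29 for Hmox1, −0.014 to 0.22 for Sod2, −0.67 to 0.49 for Gpx3, −0.11 to 0.048 for Idh1, −0.22 to 0.0013 for Gpx1 and −0.13 to 0.054 for Gpx4. In A537T-TRAMP at 10 weeks it gave −0.34 to 0.14 for Hmox1, −0.27 to 0.0056 for Sod2 and −0.30 to 0.031 for Gpx4. At 30 weeks it gave −0.014 to 0.11 for Sod2 and −0.081 to 0.18 for Gpx1 in KO-TRAMP, and −0.018 to 0.038 for Txnrd1 and −0.20 to 0.23 for Gclc in A537T-TRAMP. For the age differences it gave −0.11 to 2.10 for Nqo1 and −0.16 to 0.069 for Sod2 in KO-TRAMP, and −1.15 to 0.0057 for Gpx3, −0.038 to 0.26 for Idh1 and −0.31 to 0.13 for Gclc in A537T-TRAMP. The other member estimates kept their sign, although some moved widely, as given beside Gpx3 and Nqo1 in A537T-TRAMP at 10 weeks.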
